A study of Rattus norvegicus with 6 samples.

Results

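Voltage-gated and potassium channel genes were taken as every protein-coding row of the deposited table whose gene symbol begins with Kcn, Scn and a digit, Cacn, or Hcn and a digit, leaving out Cacna1c. This gave 134 of the 34510 rows, of which 92 were Kcn genes. Messenger RNA was sequenced in 6 libraries of neonatal rat ventricular cardiomyocytes, the cultured heart muscle cells of newborn rats. By their titles, 3 libraries are Bgal and 3 are Trim28. TRIM28, a chromatin corepressor, was delivered by adenovirus, as the design text states. The labels do not expand the name Bgal, do not say which virus those cells were given, and state no dose, time, strain, sex or age. The sources do not say whether the libraries came from separate cultures, so a p-value here speaks to the spread of these 6 samples alone, and that spread may be technical.

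The upstroke of the cardiac action potential is carried by sodium channels, its plateau by calcium channels and its return to rest by several potassium channels. Each channel has a pore-forming subunit, and many also have accessory subunits that set their surface level and gating. HCN channels carry the pacemaker current of the heart and are open at negative voltages. In rodent ventricle many of these genes change their level around birth.

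Levels are in FPKM, fragments per kilobase of gene length and scaled to library depth, a scale on which genes can be set side by side. Of the 134 channel genes, 48 reached 0.5 FPKM in at least 3 libraries and were tested with limma on log2(FPKM + 1), with Benjamini-Hochberg adjustment over all 14808 genes tested and a threshold of 0.05. Of these 48, 31 or 64.6% passed, against 41.2% of all tested genes: 17 rose, 14 fell and 17 did not pass. Among all tested genes 20.1% rose and 21.1% fell, against 35.4% and 29.2% of the tested channel genes. The median log2 change was 0.14 for the channel genes and -0.02 for all tested genes. The value for channel genes was 0.0304 with no filter (0.01 for all genes) and 0.22 both with a pseudocount of 0.1 and with limma-voom on recovered reads. In 18 channel genes all Trim28 libraries lay above all Bgal libraries and in 15 all lay below, where the shares over all tested genes were 26% and 27.7%. Cacna1s, Kcna6 and Kcnj8 met the filter only by their Trim28 values, so their rise is partly set by the filter. With no filter, 126 channel genes had a read in at least 1 library. Of these 126, 17 rose and 12 fell, beside 2752 (11.7%) and 2726 (11.6%) of all 23443 such genes. The shares of channel genes were then near those of all genes. The excess seen among the 48 filtered genes was thus not seen without the filter. Cacnb1, Kcnj2, Kcnj5, Kcnn1 and Scn4b then no longer passed (limma adjusted p = 0.0919, 0.0647, 0.0561, 0.0774 and 0.0956), and 3 other genes did. The number that rose dropped to 10 when Bgal replicate 1, Trim28 replicate 1 or Trim28 replicate 2 was left out. The share of all tested genes that passed was then 32.3%, 32.5% and 33.2%, down from 41.2%.

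The 6 libraries held between 26146166 and 34593292 reads assigned to genes. Trim28 itself stood at 77.6 to 87.8 FPKM in the Bgal libraries and at 2923, 2890 and 980 FPKM in Trim28 replicates 1, 2 and 3. Of 9 cardiomyocyte markers found, all were expressed, and their summed level was 16847 to 18490 FPKM in Bgal and 14951 to 15356 FPKM in Trim28 libraries, with 5 lower and 1 higher. Of all tested genes 20.1% were higher and 21.1% lower, the shares beside which these marker counts stand. Markers of other cells were present and mostly higher in the Trim28 libraries. Of 8 fibroblast markers 6 rose, and their sum went from 364 to 386 FPKM in Bgal to 667 to 715 FPKM. Of 8 smooth muscle and mural markers 7 rose, and their sum went from 778 to 1037 FPKM to 1645 to 1741 FPKM. Of 7 leukocyte markers found 6 were tested and all 6 rose, 1 of which met the filter only by its Trim28 values, and their sum went from 27.1 to 27.5 FPKM to 64.2 to 65.7 FPKM. Of 7 endothelial markers found 3 were tested, 2 rose and 1 fell, and their sum went from 39.4 to 47.5 FPKM to 89.8 to 92.8 FPKM. Eng made up most of that sum, at 29.3 to 36.96 FPKM and at 81.0 to 83.7 FPKM, while Cdh5, Tie1, Vwf and Emcn stayed under the filter. Of 10 neuron and Schwann cell markers 2 were tested and neither passed, and their sum lay between 2.11 and 3.53 FPKM over all libraries. Snap25, a defining marker of neurons, was at or under 0.0508 FPKM in every library. The part of these other cells in the channel results was not tested. In bulk RNA, fewer cells of a type and less RNA per cell cannot be told apart.

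**Figure D1:**
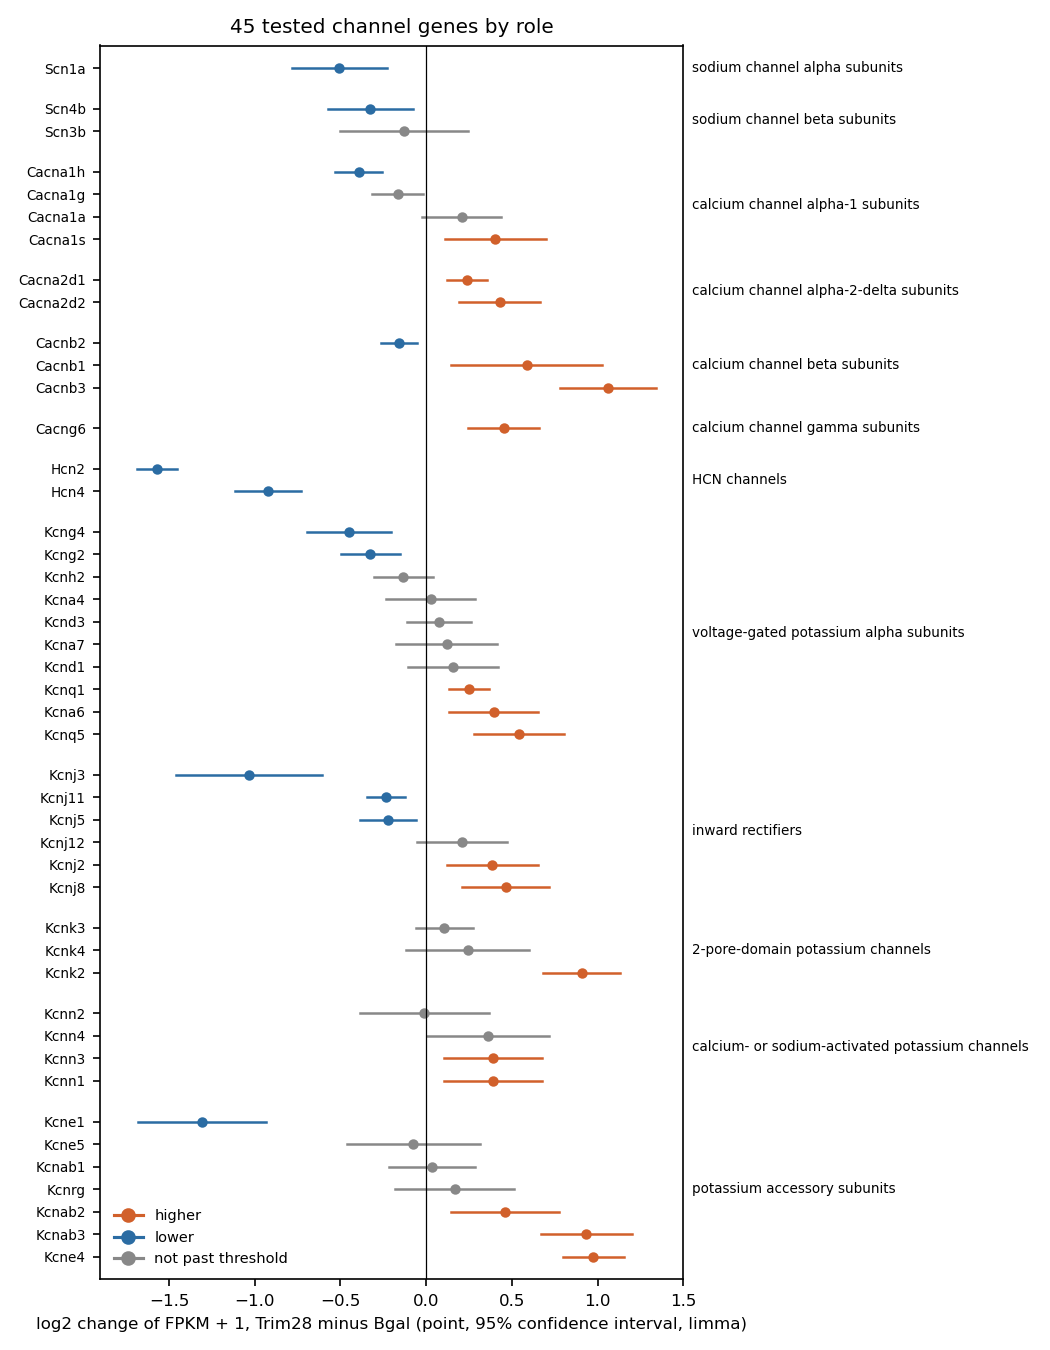
Log2 change of FPKM + 1, Trim28 minus Bgal, for 45 tested channel genes grouped by role; points are limma estimates and lines their 95% confidence intervals, and colour marks genes past the adjusted p of 0.05. The HCN genes both lie to the left of 0, while the calcium channel alpha-2-delta and gamma genes lie to the right.

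Promoter windows were available for 89 of the 134 genes, from RefSeq on the GRCr8 build. The 5 genes below passed the threshold with a log2 change of at least 0.9 in size and have 1 RefSeq start. They are shown because they carry the largest changes for which a sequence was at hand. Each is the 250 bases before that start, 5′ to 3′. Capitals mark the GC box GGGCGG in Hcn2, Kcne4 and Cacnb3 and the T-box element GGTGTGA in Kcne1, on either strand.
Hcn2 (chr7:10639458-10639707, minus strand): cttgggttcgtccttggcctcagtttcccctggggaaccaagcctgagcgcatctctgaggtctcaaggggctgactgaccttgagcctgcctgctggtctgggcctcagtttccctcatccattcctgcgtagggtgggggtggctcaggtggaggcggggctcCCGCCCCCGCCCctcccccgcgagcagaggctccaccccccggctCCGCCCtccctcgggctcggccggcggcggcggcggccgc
Kcne1 (chr11:45077034-45077283, minus strand): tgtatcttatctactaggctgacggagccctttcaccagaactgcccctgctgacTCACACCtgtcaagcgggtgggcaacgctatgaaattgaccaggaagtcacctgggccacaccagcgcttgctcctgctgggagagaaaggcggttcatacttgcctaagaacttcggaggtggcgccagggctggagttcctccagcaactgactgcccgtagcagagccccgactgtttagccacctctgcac
Kcnab3 (chr10:54546388-54546637, plus strand): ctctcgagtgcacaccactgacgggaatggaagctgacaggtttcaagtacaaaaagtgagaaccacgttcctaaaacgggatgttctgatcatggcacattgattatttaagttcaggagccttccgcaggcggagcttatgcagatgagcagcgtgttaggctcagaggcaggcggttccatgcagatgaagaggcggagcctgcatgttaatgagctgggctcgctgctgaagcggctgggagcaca
Kcne4 (chr9:87695798-87696047, plus strand): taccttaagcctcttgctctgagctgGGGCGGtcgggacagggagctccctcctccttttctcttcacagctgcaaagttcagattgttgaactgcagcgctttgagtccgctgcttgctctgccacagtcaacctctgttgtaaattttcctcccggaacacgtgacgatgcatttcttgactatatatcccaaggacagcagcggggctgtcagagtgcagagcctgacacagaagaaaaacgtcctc
Cacnb3 (chr7:131666301-131666550, plus strand): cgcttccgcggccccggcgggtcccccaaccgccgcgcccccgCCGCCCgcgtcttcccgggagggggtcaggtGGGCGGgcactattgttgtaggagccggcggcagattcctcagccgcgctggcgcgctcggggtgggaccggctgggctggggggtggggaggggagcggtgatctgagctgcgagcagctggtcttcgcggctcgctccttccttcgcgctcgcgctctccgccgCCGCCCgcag

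The 2 genes that fell, Hcn2 and Kcne1, differed in these windows. Hcn2 had a GC content of 71.6% and 3 GC boxes. Kcne1 had 57.6%, no GC box and 1 T-box element. Of the 3 genes that rose, Cacnb3 had 76.4% and 3 GC boxes, Kcne4 52.4% and 1 GC box, and Kcnab3 52.8% and none of the motifs searched. A GC box was in 9 of 17 windows of channel genes that rose, which came from 14 genes. Of channel genes that fell, 4 of 8 windows, from 7 genes, had a GC box. It was in 50% of all 98 channel windows, against 30.5% of all 33469 promoter windows of this length. The median GC content also differed, at 60.8% in the channel windows and 51.2% in all windows. The T-box element was in 3.22% of all windows and in 3 of the 98. Also searched on both strands were the TATA box TATAAA (12.9% of all windows, 4 of 98), the cAMP response element TGACGTCA (1.59%, 0 of 98), the RE1 left arm TTCAGCACC (0.305%, 2 of 98), the MEF2 site (0.523%, 1 of 98) and the CArG box (1.5%, 0 of 98). A match is a description of letters in these windows and no measurement of binding.

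Among the sodium channel genes reported here, Scn1a, better known from neurons, went from 1.61, 1.26 and 1.75 to 0.675, 0.843 and 0.833 FPKM, a 1.96-fold fall (limma adjusted p = 0.0126). Scn4b, the gene of an accessory beta subunit, went from 3.44 ± 0.375 to 2.54 ± 0.295 FPKM (SD, n = 3 each, limma adjusted p = 0.0439), and its call was lost without Bgal replicate 1, 2 or 3 or Trim28 replicate 1 or 2 (limma adjusted p = 0.0538 to 0.141), with upper-quartile scaling (0.0556) and with no filter (0.0956). Scn3b stood at 1.37 ± 0.437 and 1.14 ± 0.196 FPKM and missed the threshold (limma adjusted p = 0.546). Scn10a and Scn11a had 0 reads in every library.

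The HCN genes held the largest fall among the tested channel genes. Hcn2 (ENSRNOG00000008831, chromosome 7, 12851739 to 12874215 in the deposited table, build not given in the sources used here) stood at 29.4, 28.8 and 29.6 FPKM with Bgal and at 8.93, 9.15 and 9.49 FPKM with Trim28. Within each group the libraries differed by less than 1 FPKM. The fall was 3.18-fold, with a log2 change of -1.57 (SE 0.05, 95% confidence interval -1.69 to -1.45, limma adjusted p = 1.42e-05). Hcn4, the main pacemaker channel of the sinus node, went from 9.21, 9.24 and 8.10 FPKM to 4.25, 3.90 and 4.44 FPKM, or 2.11-fold lower (log2 change -0.92, SE 0.08, limma adjusted p = 0.000241). Hcn2 was 3.11 to 3.65 times as high as Hcn4 in the Bgal libraries and 2.10 to 2.35 times in the Trim28 libraries. The share of Hcn4 in the summed FPKM of the 4 genes was 21.4% to 24.2% and 29.4% to 31.6%. Hcn3 stayed at or below 0.0951 FPKM in every library and was not tested.

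**Figure D2:**
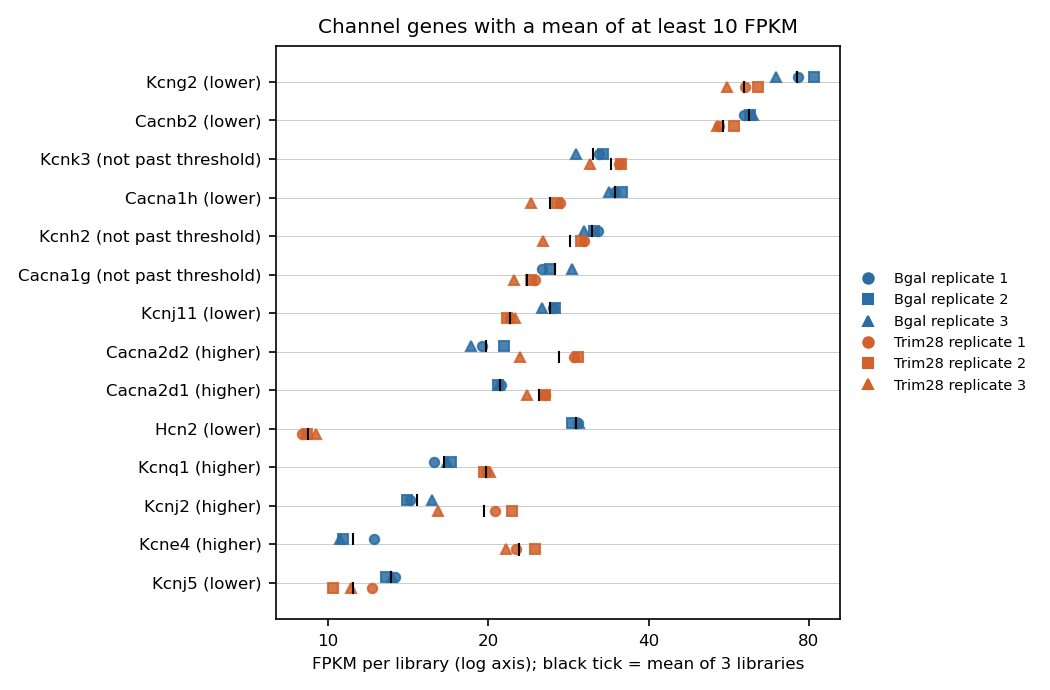
FPKM per library on a log axis for 14 channel genes with a mean of at least 10 FPKM; each symbol is 1 library, black ticks are means of 3 libraries, and the call stands after the gene name. Hcn2 shows the widest gap, with Bgal libraries near 29 and Trim28 libraries near 9 FPKM, and Kcne4 the widest gap in the other direction.

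Cacna1h and Cacna1g encode T-type calcium channels, which open at low voltage and are prominent in fetal and pacemaking heart cells. They were the most abundant of the 8 calcium pore genes described here, which leave out Cacna1c, the main cardiac L-type pore gene. Cacna1h went from 34.5, 35.6 and 33.7 FPKM to 27.3, 27.0 and 24.1 FPKM, a 1.32-fold fall (log2 change -0.39, SE 0.06, limma adjusted p = 0.00197). It overlaps Tpsg1 on the opposite strand, and whether the counting used strand is not known from the labels. Cacna1g stood at 25.2, 26.2 and 28.7 FPKM and at 24.5, 24.1 and 22.4 FPKM. Its groups did not overlap, yet it missed the threshold (log2 difference between -0.32 and -0.02 with 95% confidence, limma adjusted p = 0.0745), except in limma-voom on recovered reads (adjusted p = 0.0201). Cacna1a stood at 3.98 ± 0.475 and 4.74 ± 0.321 FPKM (SD, n = 3 each) and missed the threshold (limma adjusted p = 0.134). Cacna1s, the skeletal muscle channel, rose from 0.189 to 0.294 FPKM to 0.502 to 0.796 FPKM (limma adjusted p = 0.0372). It rests on 31 to 116 reads per library, and its call was lost without any 1 library other than Trim28 replicate 3 (limma adjusted p = 0.0682 to 0.108). Cacna1d, an L-type channel of pacemaking cells, was not tested. Its values of 0.269, 0.369 and 0.353 FPKM in Bgal and 0.632, 0.556 and 0.480 FPKM in Trim28 libraries did not overlap.

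Of 6 accessory calcium channel genes tested, 5 rose and 1 fell, where 20.1% and 21.1% of all tested genes did, and the calls of Cacnb1 and Cacnb2 were lost in several settings. Of the 4 genes for alpha-2-delta subunits, which raise the number of channels at the surface, 2 were tested and both rose. Cacna2d1 went from 21.2, 20.9 and 20.9 FPKM to 25.5, 25.5 and 23.7 FPKM (1.19-fold, limma adjusted p = 0.00804), and Cacna2d2 from 19.5, 21.5 and 18.6 FPKM to 28.95, 29.5 and 22.99 FPKM (1.37-fold, limma adjusted p = 0.0132). In both, Trim28 replicate 3 lay closest to the Bgal values. Cacng6, a gamma subunit gene of muscle, rose from 1.86, 2.06 and 1.86 to 2.87, 3.07 and 3.06 FPKM (1.56-fold, limma adjusted p = 0.00565), while the other 7 gamma genes were not tested.

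Beta subunits bind the pore protein inside the cell and bring it to the surface. Cacnb2, the main cardiac beta subunit gene, held 90.3% to 93.4% of the summed FPKM of the 4 beta genes in Bgal and 81.9% to 83.2% in Trim28 libraries. It went from 60.3, 62.1 and 62.9 FPKM to 54.2, 57.8 and 53.8 FPKM (log2 change -0.16, SE 0.05, limma adjusted p = 0.0274). That small fall was not past the threshold with upper-quartile scaling (0.0609), without the intensity trend (0.072), or without Bgal replicate 2 or 3 or Trim28 replicate 1 or 3 (limma adjusted p = 0.0621 to 0.0952). Cacnb3 (ENSRNOG00000054274, chromosome 7, 140315368 to 140324902) was 3.48, 4.81 and 3.29 FPKM with Bgal and 9.19, 8.81 and 9.08 FPKM with Trim28. This 2.34-fold rise had a log2 change of 1.06 (SE 0.12, limma adjusted p = 0.000599), the largest rise of the tested channel genes on that scale. Per unit of Cacnb2, Cacnb3 was 0.0523 to 0.0774 in Bgal and 0.152 to 0.169 in Trim28 libraries. Cacnb1 rose from 1.42 ± 0.347 to 2.68 ± 0.824 FPKM (SD, n = 3 each, limma adjusted p = 0.0402). Its highest Bgal value and lowest Trim28 value were nearly equal, and the call was lost without Bgal replicate 1 or 3 or Trim28 replicate 1 or 2 (limma adjusted p = 0.103 to 0.119).

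Of 38 voltage-gated potassium channel pore genes 27 were not tested. Of the 11 tested 3 rose and 2 fell, or 45.5% in all, near the 41.2% of all tested genes. Kcng2, which encodes a modulatory subunit that forms channels only together with other potassium subunits, was the most abundant of the 134 channel genes in every library. It went from 76.3, 81.9 and 69.4 FPKM to 60.6, 64.3 and 56.1 FPKM (1.26-fold lower, log2 change -0.33, SE 0.07, limma adjusted p = 0.011). The related gene Kcng4 fell from 1.58, 1.36 and 1.63 FPKM to 0.891, 0.760 and 0.883 FPKM (1.80-fold, limma adjusted p = 0.0121).

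Kcnq1 encodes the pore of the slow delayed rectifier, a current that ends the action potential. It rose from 15.8, 17.0 and 16.8 FPKM to 19.8, 19.6 and 20.1 FPKM (1.2-fold, log2 change 0.25, SE 0.05, limma adjusted p = 0.0069). Kcnq5 rose 2.14-fold, from 0.669 ± 0.0900 to 1.43 ± 0.174 FPKM (SD, n = 3 each, limma adjusted p = 0.00748). Kcna6 rose from 0.296 to 0.401 FPKM to 0.712 to 0.843 FPKM (limma adjusted p = 0.0249), a call lost without any 1 library other than Bgal replicate 2 (limma adjusted p = 0.0502 to 0.0753).

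Kcnh2, the pore of the rapid delayed rectifier, stood at 32.1, 31.5 and 30.2 FPKM and at 30.3, 29.9 and 25.4 FPKM. It missed the threshold (log2 difference between -0.30 and 0.04 with 95% confidence, limma adjusted p = 0.186). Kcnd3, a pore gene of the transient outward current, stood at 5.41 ± 0.243 and 5.76 ± 0.427 FPKM (log2 interval -0.11 to 0.26, limma adjusted p = 0.491), and Kcna4, another gene of that current, at 1.39 ± 0.137 and 1.43 ± 0.193 FPKM (log2 interval -0.23 to 0.28, limma adjusted p = 0.871), with n = 3 libraries in each group. Kcnd1 and Kcna7 did not pass either. Kcna5 had at most 7 reads in any library and was not tested.

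The accessory subunits of Kcnq1 moved in opposite directions. Kcne1, which slows the opening of the Kcnq1 channel and forms the slow delayed rectifier with it, stood at 7.06, 8.83 and 9.95 FPKM with Bgal and at 2.57, 3.71 and 2.38 FPKM with Trim28. The fall was 2.98-fold, with a log2 change of -1.31 (SE 0.16, limma adjusted p = 0.000806), on 40 to 200 reads per library over a length of 585 bases. Kcne4, which encodes an inhibitory partner of the same channel, went from 12.2, 10.7 and 10.5 FPKM to 22.6, 24.5 and 21.5 FPKM. It rose 2.05-fold, with a log2 change of 0.98 (SE 0.08, limma adjusted p = 0.000141). The ratio of Kcne1 to Kcnq1 was 0.447, 0.519 and 0.594 with Bgal and 0.13, 0.189 and 0.118 with Trim28, while that of Kcne4 to Kcnq1 was 0.771, 0.627 and 0.630 and then 1.14, 1.25 and 1.07. Neither ratio overlapped between the groups. Kcne5 was at 0.604 ± 0.284 and 0.511 ± 0.143 FPKM and missed the threshold (n = 3 each, limma adjusted p = 0.752).

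**Figure D3:**
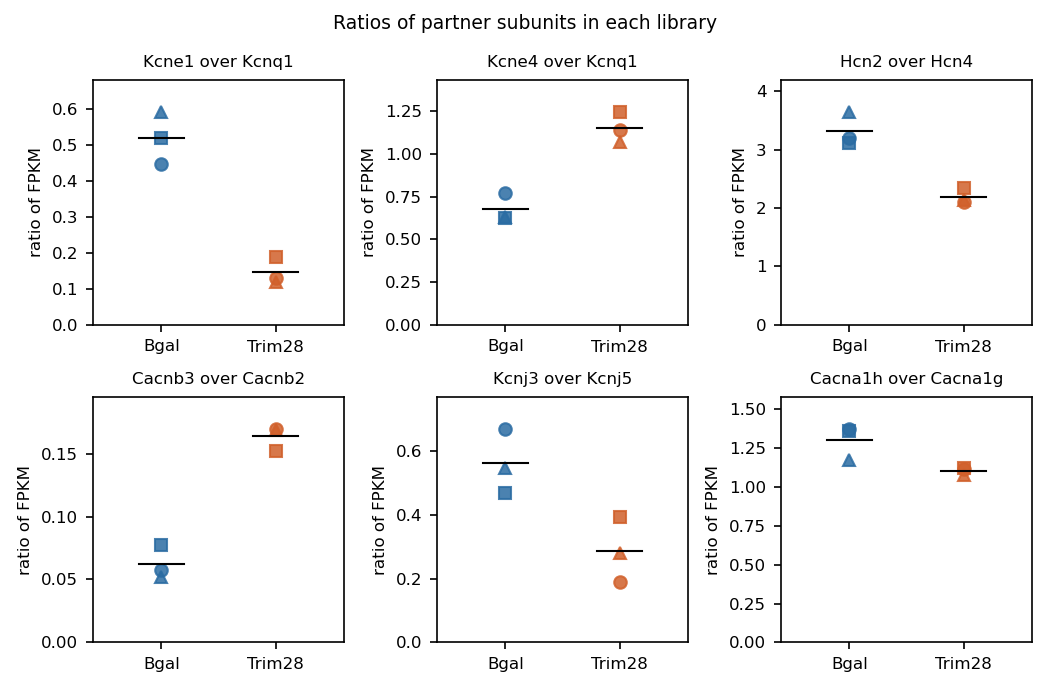
Ratios of FPKM of 6 pairs of partner or related subunits in each library, with symbols as replicate numbers (circle 1, square 2, triangle 3) and black lines as means of 3 libraries. The ratios of Kcne1 to Kcnq1, Hcn2 to Hcn4, Kcnj3 to Kcnj5 and Cacna1h to Cacna1g are lower in the Trim28 libraries. Those of Cacnb3 to Cacnb2 and Kcne4 to Kcnq1 are higher, and none of the 6 overlaps between the groups.

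Of the other accessory genes, Kcnab3, a cytoplasmic beta subunit, rose from 0.666, 0.799 and 0.786 FPKM to 2.17, 2.74 and 2.15 FPKM, or 3.14-fold (log2 change 0.93, SE 0.11, limma adjusted p = 0.000777). This was the largest ratio of mean FPKM among the tested channel genes that rose. Kcnab2 rose from 0.298, 0.417 and 0.690 FPKM to 0.904, 1.10 and 1.02 FPKM (limma adjusted p = 0.0295), a call lost without any 1 library other than Bgal replicate 3 (limma adjusted p = 0.0544 to 0.097). Kcnab1 and Kcnrg did not pass.

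Kcnip2 encodes the subunit that sets the size of the transient outward current in adult ventricle, and it was not tested. Its reads numbered 44, 23 and 399 in the Bgal replicates and 5, 5 and 152 in the Trim28 replicates, which is 0.487, 0.312 and 4.57 FPKM and 0.0705, 0.0750 and 2.08 FPKM. The libraries numbered 3 were thus the highest of both groups, and the values of the 2 groups overlapped. Kcnd2, the other main pore gene of that current, was not analysed here.

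The inward rectifiers hold the resting voltage. Kcnj2, a main pore gene of that background current, stood at 14.3, 14.1 and 15.7 FPKM and at 20.6, 22.2 and 16.1 FPKM (1.34-fold higher, limma adjusted p = 0.0294). Trim28 replicate 3 lay just above the highest Bgal library, and the call was lost without Bgal replicate 1 or 2 or Trim28 replicate 1 or 2 (limma adjusted p = 0.082 to 0.089). Kcnj12, which contributes to the same current, stood at 2.42 ± 0.25 and 2.96 ± 0.422 FPKM (SD, n = 3 each) and missed the threshold (limma adjusted p = 0.181).

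Kcnj3 and Kcnj5 together form the channel through which acetylcholine slows the heart. Kcnj3 (ENSRNOG00000005369, chromosome 3, 41019898 to 41181070) fell from 8.94, 6.01 and 7.22 FPKM to 2.28, 4.01 and 3.09 FPKM, or 2.37-fold (log2 change -1.03, SE 0.18, limma adjusted p = 0.00376). Kcnj5 went from 13.4, 12.9 and 13.2 FPKM to 12.1, 10.2 and 11.1 FPKM (1.18-fold lower, limma adjusted p = 0.0368). The call of Kcnj5 was lost with upper-quartile scaling (0.0574) and without any 1 library other than Trim28 replicate 1 (limma adjusted p = 0.0652 to 0.107). The ratio of Kcnj3 to Kcnj5 was 0.467 to 0.669 in the Bgal libraries and 0.188 to 0.391 in the Trim28 libraries.

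The potassium channel closed by ATP joins a Kcnj pore with a sulfonylurea receptor. Kcnj11, the pore of heart muscle, fell from 26.5, 26.6 and 25.2 FPKM to 21.96, 21.7 and 22.4 FPKM (1.19-fold, limma adjusted p = 0.00626). Kcnj8, the pore known from vascular smooth muscle and mural cells, rose from 0.401, 0.463 and 0.345 FPKM to 0.993, 0.860 and 0.951 FPKM (limma adjusted p = 0.0124). Kcnj8 met the filter only by its Trim28 values, so its rise is partly set by the filter. In the same libraries 7 of 8 smooth muscle and mural markers rose, where 20.1% of all tested genes did. A link between Kcnj8 and these markers was not tested. The level of Kcnj8 was 0.0137 to 0.0174 of that of Kcnj11 in Bgal and 0.0397 to 0.0452 in Trim28 libraries. Abcc9, the receptor gene usual in ventricle, fell from 45.3, 38.9 and 43.4 FPKM to 21.8, 20.99 and 21.8 FPKM (1.97-fold, limma adjusted p = 9.42e-05). Abcc8, the receptor gene better known from pancreas and atrium and chosen here after its values were seen, rose from 19.2 ± 1.38 to 25.3 ± 1.96 FPKM (SD, n = 3 each, limma adjusted p = 0.00665).

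The 2-pore-domain channels carry background potassium current. Kcnk3 was the most abundant of the 14 genes, at 32.3, 32.8 and 29.2 FPKM and at 35.2, 35.6 and 31.1 FPKM, and missed the threshold (log2 difference between -0.06 and 0.27 with 95% confidence, limma adjusted p = 0.264). Kcnk2, a channel opened by stretch and lipids, rose from 1.16, 1.00 and 1.2 FPKM to 2.99, 2.80 and 3.14 FPKM, or 2.65-fold (log2 change 0.91, SE 0.10, limma adjusted p = 0.000467). Kcnk4 stood at 1.91 ± 0.457 and 2.44 ± 0.438 FPKM (n = 3 each) and missed the threshold (limma adjusted p = 0.245).

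Among channels opened by calcium, Kcnn1 rose from 3.63, 5.26 and 5.04 FPKM to 6.39, 6.14 and 6.5 FPKM (limma adjusted p = 0.0362), and Kcnn3 from 0.631 ± 0.0374 to 1.14 ± 0.244 FPKM (SD, n = 3 each, limma adjusted p = 0.0383). The call of Kcnn1 was lost without Bgal replicate 1 or any 1 Trim28 library (limma adjusted p = 0.0594 to 0.0878). That of Kcnn3 was lost without any 1 library other than Trim28 replicate 3 (limma adjusted p = 0.0828 to 0.118). Kcnn2, the form best known in atrium, stood at 0.704 ± 0.0772 and 0.710 ± 0.317 FPKM (log2 interval -0.39 to 0.36, n = 3 each, limma adjusted p = 0.961). Kcnma1, the large-conductance channel abundant in smooth muscle, had 2 to 17 reads per library and was not tested.

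**Figure D4:**
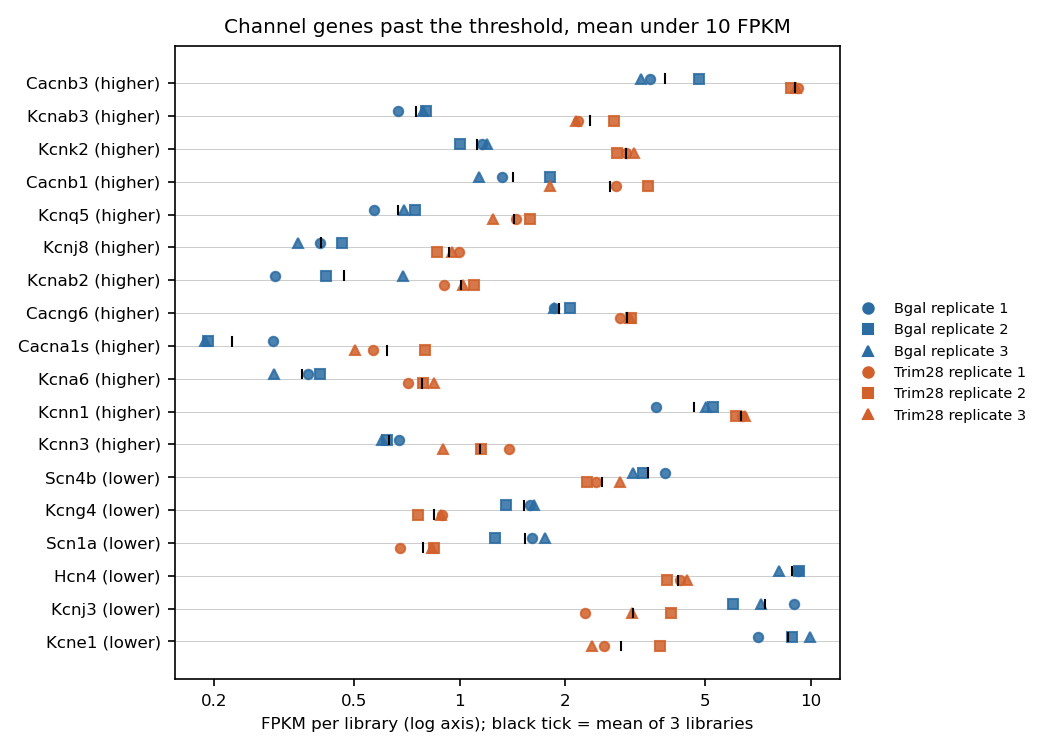
FPKM per library on a log axis for the 18 channel genes past the threshold with a mean under 10 FPKM, ordered by log2 change; symbols are libraries and black ticks are means of 3 libraries. Kcnab3, Kcnk2 and Cacnb3 show clear gaps to the right and Kcne1, Kcnj3 and Hcn4 to the left, while Cacnb1 and Scn4b nearly touch.

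Calls were also counted by level. Of the 16 channel genes with a mean of at least 10 FPKM, 5 rose, 8 fell and 3 did not pass, where 21.7% and 31% of all tested genes at that level rose and fell. Between 1 and 10 FPKM, 7 of 22 tested rose and 6 fell, against 20.1% and 14.5%. Under 1 FPKM, 5 of 10 tested rose and 0 fell, against 13.2% and 7.36%. Of the 5 that rose, 3 (Cacna1s, Kcna6 and Kcnj8) had met the filter only by their Trim28 values. That count is thus partly set by the filter. Over all 1672 tested genes at that level, 242 had met the filter by 1 group only. The summed FPKM of all 134 genes was 590.5 to 605 in the Bgal libraries and 516 to 557 in the Trim28 libraries, without overlap. That of the Kcn genes alone was 269 to 277 and 259 to 284, with overlap. The summed level of the 4 HCN genes went from 37.8 to 38.9 FPKM to 13.3 to 14.1 FPKM.

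**Figure D5:**
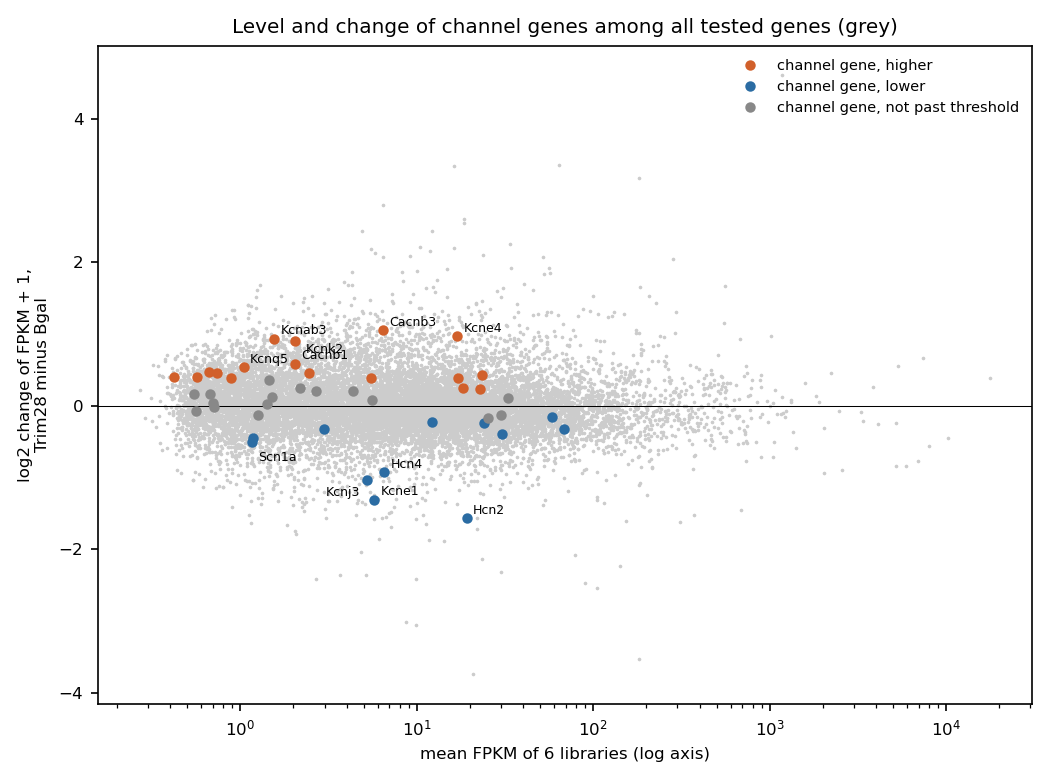
Log2 change of FPKM + 1, Trim28 minus Bgal, against the mean FPKM of 6 libraries (log axis) for 45 tested channel genes (coloured) and the tested genes of the whole table (grey). Hcn2 at -1.57 and Kcne1 at -1.31 are the lowest channel genes, and Cacnb3 at 1.06 is the highest.

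Trim28 replicate 3 had the lowest Trim28 level of its group. Of the 31 channel genes past the threshold, it was the Trim28 library nearest to the Bgal mean in 14 genes, or 45.2%, close to the 44.1% over all 6097 genes past the threshold. It was the nearest in 9 of the 17 that rose (52.9%, against 46.5% over all genes that rose) and in 5 of the 14 that fell (35.7%, against 41.8%). It was so for Cacna2d2, Kcnj2, Cacnb1 and Hcn2, though for Hcn2 the 3 Trim28 libraries lay close together.

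Of 28 partners that anchor, deliver or regulate channels 25 were tested, and their median log2 change was 0.10. Of these 10 rose (40%) and 6 fell (24%), where 20.1% of all tested genes rose and 21.1% fell. Rrad, a small GTPase that binds calcium channel beta subunits and lowers calcium current, rose from 76.2, 78.6 and 70.2 FPKM to 195.5, 212 and 158 FPKM (2.51-fold, limma adjusted p = 0.000162). Its relatives Gem and Rem1, chosen here after their values were seen, were higher too: Gem went from 4.86 ± 0.181 to 12.4 ± 2.80 FPKM (limma adjusted p = 0.00096) and Rem1 from 2.25 ± 0.478 to 4.22 ± 0.502 FPKM (limma adjusted p = 0.00581), with n = 3 libraries in each group. Popdc2, a membrane protein that binds cyclic AMP and interacts with Kcnk2, rose from 389 ± 22.2 to 633 ± 25.8 FPKM (limma adjusted p = 0.000173).

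Of 22 other channels of heart cells 18 were tested, 8 rose (44.4%) and 1 fell (5.56%), against 20.1% and 21.1% of all tested genes, with a median log2 change of 0.29. Piezo1, a channel opened by stretch, rose 1.78-fold, from 4.97 ± 0.558 to 8.84 ± 0.247 FPKM (limma adjusted p = 0.00069). Pkd2, a calcium-permeable channel, went from 18.1 ± 0.764 to 24.99 ± 0.807 FPKM (limma adjusted p = 0.000774), and Ano6, a lipid scramblase and ion channel, from 7.35 ± 0.246 to 10.6 ± 0.481 FPKM (limma adjusted p = 0.00131), with n = 3 libraries in each group. Of 19 transcription factors known to set cardiac channel genes, present as 20 rows because Rcor1 is listed in 2, 19 rows were tested, 7 rose (36.8%) and 5 fell (26.3%), against 20.1% and 21.1%. Etv1, a factor of fast-conducting heart muscle, rose from 4.63 ± 0.457 to 10.7 ± 0.471 FPKM (limma adjusted p = 0.000148). Mef2c, a factor of muscle genes, rose 1.40-fold, and Tbx2, a repressor in slowly conducting heart muscle, rose 2.56-fold. The 5 that fell, named after their values were seen, were Irx3 (1.73-fold), Irx5 (1.5-fold), Irx4 (1.43-fold), Nfatc3 (1.26-fold) and Gata6 (1.21-fold).

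The remaining 86 channel genes were not tested. Of these, 76 stayed under 0.5 FPKM in all libraries, 8 of them with 0 reads throughout, and 10 reached that value in 1 or 2 libraries. Among the 10 were Cacna1d, Kcne2, Kcnf1, Kcnip2, Kcnip3, Kcnj14, Kcnmb1, Kcnmb4 and Kcns3. With no filter, 3 of the untested genes, Kcnj15, Kcnk15 and Kcnv1, passed as higher, all at or under 0.434 FPKM. These 3 names were picked after seeing the values.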

How the data were processed

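Poly(A) RNA libraries made with a dUTP strand-marking protocol and read as pairs were available for 3 Bgal and 3 Trim28 samples, grouped by their titles. The authors deposited 1 table of FPKM values per gene. HISAT2 2.0.5 is named, per the submitters' processing notes. The counter, strand option, build and gene models were not given in the sources used here. Every deposited FPKM value came out as a whole number of reads once scaled by gene length and library, within 0.01 of a read, which gave the depth of each library.

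Values were tested as log2(FPKM + 1) with limma 3.58.1 in R 4.3.3 (intensity trend, no covariates, Benjamini-Hochberg adjustment over the 14808 genes that reached 0.5 FPKM in 3 or more libraries, threshold 0.05). Log2 changes on this scale understate the change of low genes, while folds are ratios of mean FPKM. The procedure was run on simulated reads with known changes, all larger in size than those of Cacnb2 and Kcnq1. The outcome of that run is not given here. Intervals are 95% confidence intervals from limma. Alternatives were another pseudocount, filter, scaling or trend, limma-voom on recovered reads, a replicate block and leaving out each library.

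The genes and lists were chosen with earlier results of these data known. Named are a fixed set of channel genes whatever their result, every channel gene past the threshold, the most abundant gene of each role, and up to 3 genes with the smallest p-values of each list of partners, other channels and transcription factors. Other names, among them tested channel genes that did not pass, were chosen after their values were seen. Kcnd2 was not analysed here, and a few genes are counted in the totals but not reported or drawn here. Promoter windows came from RefSeq on GRCr8 and were matched by symbol; the coordinates of the deposited table were not mixed with them.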

Additional observations from a re-analysis of the deposited data

How the results depend on the processing

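Under 13 alternatives no channel gene that had passed changed direction, but most of these settings could not change it. The filter, trend and block settings left each log2 change as it was. The groups of these genes did not overlap, so another pseudocount or leaving out a library could not turn a sign. In all 13 alternatives 9 of the 17 genes that rose and 11 of the 14 that fell stayed past the threshold. Among these were Hcn2, Hcn4, Kcne1, Kcnj3, Cacnb3, Kcne4, Kcnk2 and Kcnab3. Kcnj8 also stayed past the threshold wherever it was tested, though it met the main filter only by its Trim28 values. The like share over all genes past the threshold was not counted. The 9 of 17 and 11 of 14 thus cannot be set against it. Leaving out 1 library at a time gave 10 to 15 genes that rose, 11 to 12 that fell and a median log2 change of 0.12 to 0.16. Of all tested genes 32.3% to 38.1% then passed, against 41.2% with every library. The count that rose was 10 without Bgal replicate 1, Trim28 replicate 1 or Trim28 replicate 2. With no filter the median log2 change was 0.0304 over 126 genes, and with a pseudocount of 0.1 or limma-voom it was 0.22. A filter of 1 FPKM left 12 that rose and 14 that fell, since 5 of the low genes that rose were no longer tested. With that filter 45% of all tested genes passed. Upper-quartile scaling gave 17 and 11, and limma-voom on recovered reads 18 and 15, where 40.9% and 43.9% of all tested genes passed.

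The replicate numbers were not taken as pairing the libraries: correlations of same-numbered libraries were -0.02, 0.13 and 0.01, and not every library correlated best with its own number. With the replicate block 14 genes rose and 13 fell, where 38.3% of all tested genes passed. Cacna1s, Kcna6, Kcnj2, Kcnn3 and Scn4b then no longer passed and Kcnn4 did. Genes under 1 FPKM rest on few reads, and what size of change this depth could detect in them was not measured.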
